A study of Mus musculus with 30 samples.

Results

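The genes described are 9 that act in fatty acid oxidation or answer to PPAR delta: Ppard, Angptl4, Pdk4, Cpt1a, Cpt1b, Acadm, Acadl, Acadvl and Hadha. They were taken by symbol from a table of 16025 genes. The rule for choosing them named no measured value, but they were chosen with earlier results of these data known. All 9 were in the table and all 9 were among the 12184 genes with enough counts to be tested. They were measured in C2C12 myotubes, the fused muscle fibres that form when the mouse C2C12 myoblast line is kept in little serum, with RNA from 30 cultures in 10 groups of 3. The labels give every group as wild type C2C12, differentiated for 5 to 7 days in medium with 2% serum, so all groups are cultures of 1 cell line.

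The groups received D-galactose, a sugar used to bring on ageing-like changes in cultured cells, a preparation of Korean Red Ginseng, or both. The preparations were the saponin fraction (SFr), the water extract (RGW) and the non-saponin fraction (NSFr), each at 100 µg/mL, and the purified saponin ginsenoside Rb2 at 20 µM, each for 12 h. In SFr_Dgal, RGW_Dgal, NSFr_Dgal and Rb2_Dgal the same 12 h of preparation came before 24 h with 20 mg/mL D-galactose. Dgal received the sugar alone for 24 h, and control received vehicle. The labels do not say whether cultures given a preparation alone were kept for the further 24 h. They give no harvest time for the vehicle cultures either. In every comparison of cultures with and without D-galactose, the sugar and the length of culture therefore cannot be told apart. Length of culture may also differ between a preparation alone and control, as neither has a stated harvest time. The labels give no 12 h before the sugar for Dgal, so the same holds for the combined groups against Dgal.

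PPAR delta is a nuclear receptor that binds fatty acids, pairs with the retinoid X receptor on DNA and switches on genes of fatty acid use, and it is the main PPAR of skeletal muscle. Long-chain fatty acids enter mitochondria through carnitine palmitoyltransferase 1 and are then shortened by acyl-CoA dehydrogenases and the trifunctional protein. Angptl4, Pdk4 and Cpt1a are textbook targets of PPAR delta in muscle cells, and Pdk4 is also driven by FOXO factors during fasting.

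The 300 bases around the starts of 4 genes are shown: Pdk4 and Cpt1a, which rose after the saponin fraction, the receptor gene itself, and Acadm, whose window, like that of Cpt1a, holds a match to the receptor's core element. The sequences run from 250 bases before the annotated start to 50 after it, in the direction of the gene, and come from RefSeq on GRCm38.p6. RefSeq's start can differ from that of GENCODE, whose gene bounds are given with each gene, and the Cpt1a window lies inside the GENCODE gene. Capitals mark AGGTCA on either strand, the core element that PPAR and other nuclear receptors bind, which reads TGACCT when it lies on the opposite strand. Pdk4 is at chr6:5496229-5496528 on the minus strand, Cpt1a at chr19:3323051-3323350 on the plus strand, Acadm at chr3:153944594-153944893 on the minus strand and Ppard at chr17:28232504-28232803 on the plus strand.
Pdk4: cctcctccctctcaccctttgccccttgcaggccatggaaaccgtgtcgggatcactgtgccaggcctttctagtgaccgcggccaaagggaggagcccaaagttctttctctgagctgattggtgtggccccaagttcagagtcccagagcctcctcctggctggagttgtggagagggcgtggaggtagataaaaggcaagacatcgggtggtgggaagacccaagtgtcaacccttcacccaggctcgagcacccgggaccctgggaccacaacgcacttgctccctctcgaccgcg
Cpt1a: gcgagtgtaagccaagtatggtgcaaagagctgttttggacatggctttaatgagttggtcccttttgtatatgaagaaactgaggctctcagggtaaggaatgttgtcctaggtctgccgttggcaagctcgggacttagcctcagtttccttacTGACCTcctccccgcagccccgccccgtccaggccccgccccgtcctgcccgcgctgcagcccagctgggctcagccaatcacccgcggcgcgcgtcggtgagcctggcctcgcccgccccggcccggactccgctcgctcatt
Acadm: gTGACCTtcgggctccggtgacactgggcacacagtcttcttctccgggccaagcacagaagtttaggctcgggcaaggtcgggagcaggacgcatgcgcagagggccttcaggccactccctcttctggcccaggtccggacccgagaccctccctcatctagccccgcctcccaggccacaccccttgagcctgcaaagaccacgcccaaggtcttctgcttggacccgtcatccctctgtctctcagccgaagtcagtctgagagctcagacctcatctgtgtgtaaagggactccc
Ppard: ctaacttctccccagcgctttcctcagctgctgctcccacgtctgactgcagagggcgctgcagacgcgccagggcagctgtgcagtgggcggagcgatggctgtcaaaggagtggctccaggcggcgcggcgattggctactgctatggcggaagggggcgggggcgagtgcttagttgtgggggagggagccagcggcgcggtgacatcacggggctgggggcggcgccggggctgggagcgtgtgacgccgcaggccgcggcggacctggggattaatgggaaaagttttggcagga
Of the 9 genes, 7 matched the promoter table, and Angptl4 and Cpt1b did not. The element was in 3 of these 7 windows, beginning 249 bases upstream of the start in Acadm, 94 in Cpt1a and 87 in Acadvl, and in 16.3% of all 32851 promoter windows of the same length. The direct repeat AGGTCANAGGTCA, searched on both strands and containing the core element, was in 0 of 7 and in 0.0396% of all windows. The FOXO element TGTTTAC, also searched on both strands, was in 0 of 7 and in 3.65% of all windows. These are matches of letters in short windows and say nothing about binding there or elsewhere in the genes.

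Total expected counts, the read numbers that RSEM assigned to each gene, ranged from 22209229 to 30218353 per library. A count of 3 then corresponded to 0.0993 to 0.135 CPM, the unit of level used here, in which counts are scaled to the library's total. Such floors cover counting error only. Myotube markers were abundant. All 10 were detected, with summed levels of 19700 to 27000 CPM, and Acta1, skeletal actin, had at least 6220 CPM in every library. Of the 8 fat cell markers, 7, among them Adipoq and Plin1, had a median of 0, and their sum stayed at or under 0.239 CPM in every library. Of the endothelial and macrophage markers, Ptprc, the pan-leukocyte marker, had a median of 0, while Cd68 had a median of 1.6 CPM and up to 5.73 CPM. Of the bone cell markers, Ibsp had a median of 0, while Runx2 had a median of 37.6 CPM and Dmp1 of 4.98 CPM. The 3 libraries of a group are called biological replicates in the design text, but nothing says whether they came from separate days. The p-values set each difference against the spread between these cultures only.

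Per kilobase of exon, the dehydrogenases and the trifunctional protein were the abundant members and the inducible genes the scarcer ones. In control cultures Acadl, the long-chain acyl-CoA dehydrogenase, averaged 133 ± 5.61 CPM per kilobase (SD, n = 3), Acadvl, the very-long-chain enzyme, 51.9 ± 1.41, Hadha, the alpha subunit of the trifunctional protein, 27.8 ± 0.529, and Acadm, the medium-chain enzyme, 26.4 ± 0.390. Pdk4, the kinase that shuts pyruvate dehydrogenase, stood at 9.29 ± 0.889 CPM per kilobase and Cpt1a, the widely expressed carnitine palmitoyltransferase 1, at 6.90 ± 0.552. Angptl4, a secreted inhibitor of lipoprotein lipase, had 6.05 ± 0.644 and Ppard, the receptor, 5.99 ± 0.353. Cpt1b, the form of carnitine palmitoyltransferase 1 that predominates in adult muscle, was the scarcest at 0.176 ± 0.167. The mean level of Cpt1a per kilobase was 13.6 times that of Cpt1b in RGW_Dgal, the lowest ratio of the 10 groups, and 39.2 times in control, the highest, a value that depends on control Cpt1b levels spread from 0.0348 to 1.16 CPM. Cpt1b also overlaps Gm44502 on the same strand, so reads shared with that gene make its level and these ratios uncertain in every group. In both SFr groups Acadm stood above Hadha and Angptl4 above Cpt1a per kilobase, whereas in the other 8 groups Hadha stood above Acadm and Cpt1a above Angptl4.

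The groups differed somewhere among the 10 for 8 of the 9 genes, in an F-test over all groups by edgeR's quasi-likelihood method with Benjamini-Hochberg adjustment over all genes tested, used throughout. The same test called 72.9% of all genes. The smallest adjusted p was that of Angptl4 (1.33e-19), followed by Pdk4 (3.24e-15) and Cpt1a (6.38e-14). Acadl was not called (adjusted p = 0.0607). The call of Cpt1b (adjusted p = 0.0422) was lost in 18 of 34 alternative analyses, with adjusted p up to 0.0806 without SFr replicate 3.

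Angptl4, Pdk4 and Cpt1a were higher after the saponin fraction, while the 4 enzyme genes of beta-oxidation differed little from their baseline. In SFr against control, Angptl4 was higher 2.07-fold, Pdk4 1.61-fold and Cpt1a 1.48-fold. Ppard and Acadm were higher by less and Hadha was lower. In all, 6 of 9 genes were called higher and 1 lower after SFr, against 21.3% and 21.8% of all genes called higher and lower. The median log2 fold change of the 9 was 0.24, beside 0.00050 over all genes tested.

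**Figure D1:**
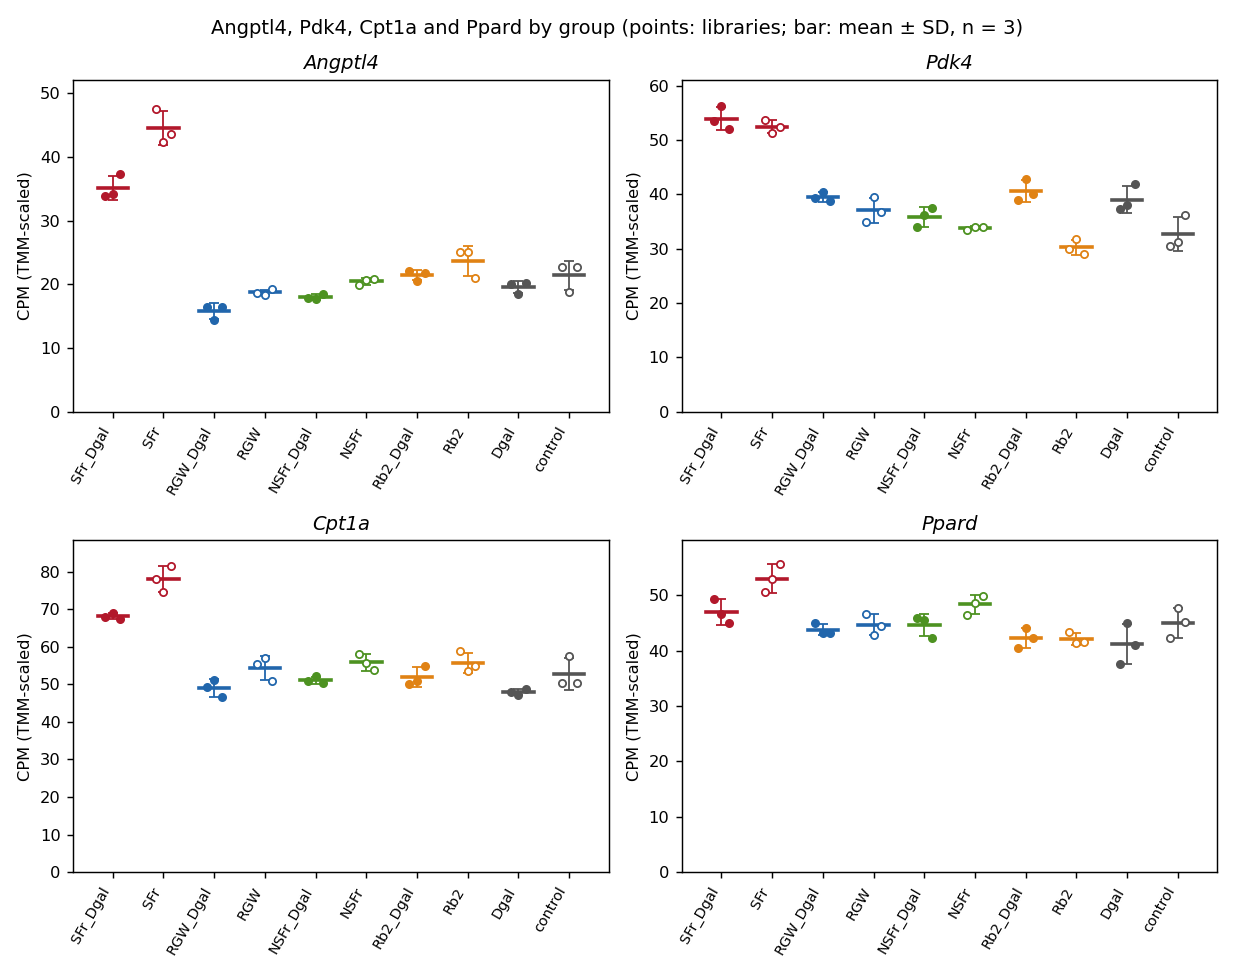
Level in CPM on the vertical axis for Angptl4, Pdk4, Cpt1a and Ppard in each of the 10 groups, 1 point per library, with the bar and whiskers giving the mean and SD of 3 libraries. The SFr_Dgal and SFr libraries lie above those of the other 8 groups for Angptl4, Pdk4 and Cpt1a, and for Ppard the SFr libraries lie highest.

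Angptl4 had 33.9, 34.2 and 37.3 CPM in SFr_Dgal cultures, against 20.0, 18.5 and 20.2 CPM in Dgal cultures. Without the sugar it had 47.5, 42.4 and 43.6 CPM in SFr cultures, against 22.8, 18.8 and 22.7 CPM in control cultures. Every SFr library lay above every library of its baseline. The log2 fold change was 1.05 ± 0.066 for SFr against control (SE, adjusted p = 3.77e-15) and 0.84 ± 0.069 for SFr_Dgal against Dgal (adjusted p = 3.25e-12), in edgeR's quasi-likelihood test. By size of rise Angptl4 ranked 252 of the 12184 genes tested in SFr against control and 286 in SFr_Dgal against Dgal. In order of mean level the groups ran SFr, SFr_Dgal, Rb2, Rb2_Dgal, control, NSFr, Dgal, RGW, NSFr_Dgal and RGW_Dgal. SFr stood clear of SFr_Dgal, and SFr_Dgal of Rb2. The ranges of all neighbours from Rb2 to NSFr_Dgal overlapped, while RGW_Dgal lay below NSFr_Dgal without overlap. On GRCm38, Angptl4 lies at chr17:33773750-33781830 on the minus strand.

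Pdk4 had 53.5, 56.2 and 52.0 CPM in SFr_Dgal, against 37.2, 38.0 and 41.8 CPM in Dgal. It had 53.7, 51.2 and 52.4 CPM in SFr, against 30.4, 31.3 and 36.2 CPM in control. The libraries with SFr lay close together, from 51.2 to 56.2 CPM, and above all libraries of the other groups. The log2 fold change was 0.69 ± 0.056 for SFr against control (adjusted p = 2.84e-12) and 0.46 ± 0.056 for SFr_Dgal against Dgal (adjusted p = 1.89e-08), in edgeR's quasi-likelihood test. The order of mean levels was SFr_Dgal, SFr, Rb2_Dgal, RGW_Dgal, Dgal, RGW, NSFr_Dgal, NSFr, control and Rb2, and of these neighbours only SFr and Rb2_Dgal did not overlap. Pdk4 lies at chr6:5483351-5496309 on the minus strand.

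Cpt1a had 67.9, 69.0 and 67.4 CPM in SFr_Dgal, against 48.0, 47.1 and 48.8 CPM in Dgal. It had 78.1, 74.6 and 81.6 CPM in SFr, against 50.3, 57.6 and 50.3 CPM in control. Both SFr groups lay wholly above their baselines. The log2 fold change was 0.57 ± 0.051 for SFr against control (adjusted p = 2.11e-11) and 0.51 ± 0.052 for SFr_Dgal against Dgal (adjusted p = 6.57e-10), in edgeR's quasi-likelihood test. By mean level the order was SFr, SFr_Dgal, NSFr, Rb2, RGW, control, Rb2_Dgal, NSFr_Dgal, RGW_Dgal and Dgal. The first 3 of these stood clear of each other, and each neighbouring pair after NSFr overlapped. Cpt1a lies at chr19:3322334-3385733 on the plus strand. The calls of Angptl4, Pdk4 and Cpt1a in both SFr comparisons held under all 11 alternative analyses of each.

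Cpt1b was too scarce to follow with the same precision. It had 1.71, 1.5 and 1.89 CPM in SFr, against 0.0348, 0.590 and 1.16 CPM in control. The first control library held 1.14 expected counts, under the floor of 3, and the control libraries spread far more than those of SFr. The log2 fold change of 1.60 ± 0.46 (adjusted p = 0.00628) depended on the control libraries. With 1 library left out, it ran from 0.97 without control replicate 1 to 2.55 without control replicate 3, and the call was lost when only the SFr and control libraries were fitted (adjusted p = 0.086). In SFr_Dgal, Cpt1b had 1.87, 1.34 and 1.27 CPM, against 0.670, 0.803 and 1.44 CPM in Dgal, and the groups overlapped (log2 fold change 0.59 ± 0.42, adjusted p = 0.277). All neighbours in the order of the 10 groups overlapped for this gene. Cpt1b lies at chr15:89416405-89425863 on the minus strand, inside the readthrough gene Gm44502 of the same strand, and 28 of its 30 values were not whole counts, so reads shared with that gene make its level uncertain.

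Ppard itself moved little. It had 50.5, 52.9 and 55.6 CPM in SFr, against 42.3, 47.6 and 45.1 CPM in control, with no overlap (log2 fold change 0.24 ± 0.054, adjusted p = 0.000505). It had 49.4, 46.6 and 44.9 CPM in SFr_Dgal, against 37.6, 44.9 and 41.0 CPM in Dgal, where the lowest SFr_Dgal library equalled the highest Dgal library to the digits given. That difference was called (0.19 ± 0.056, adjusted p = 0.00614) but not without Dgal replicate 1 (adjusted p = 0.081). SFr stood clear of NSFr at the top of the order, and all neighbours from NSFr down to Dgal overlapped. Ppard lies at chr17:28232700-28301474 on the plus strand.

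**Figure D2:**
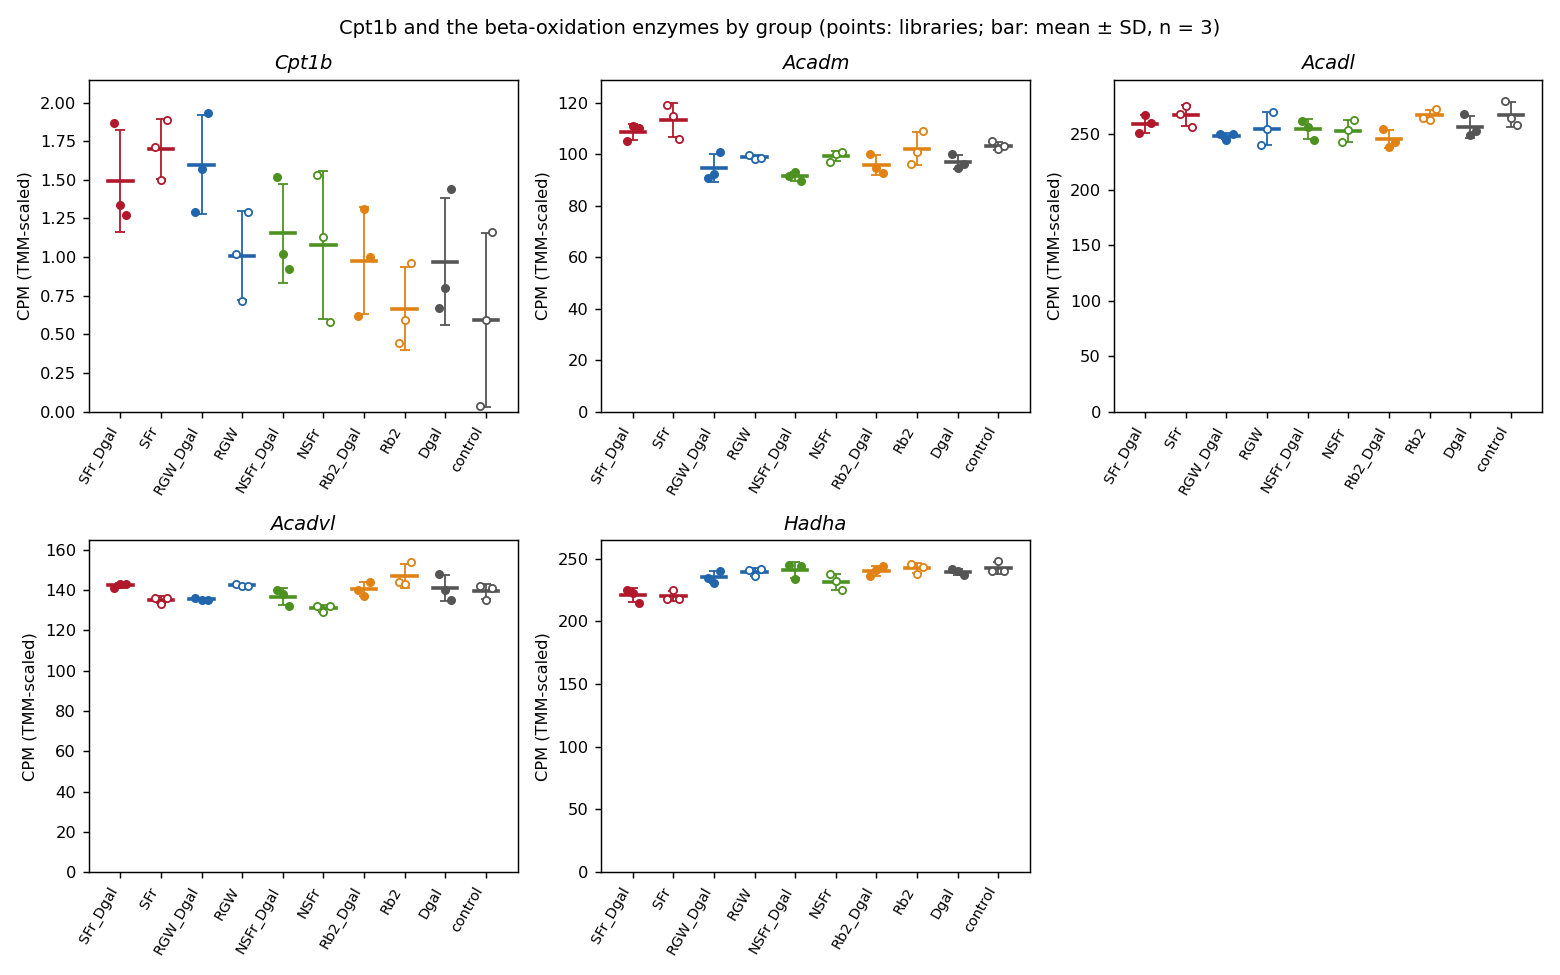
Level in CPM on the vertical axis for Cpt1b and the 4 enzyme genes of beta-oxidation in each of the 10 groups, 1 point per library, with bar and whiskers for the mean and SD of 3 libraries. Group means of Acadl, from 246 to 268 CPM, and of Acadvl, from 131 to 147 CPM, lie close together, while Cpt1b spreads widely within groups and Hadha is lowest in the SFr groups.

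The 4 enzyme genes of the beta-oxidation cycle did not follow 1 direction after SFr. Acadm, which acts on medium chains, had 119, 115 and 106 CPM in SFr, against 105, 102 and 103 CPM in control. It had 105, 111 and 110 CPM in SFr_Dgal, against 100, 94.6 and 96.2 CPM in Dgal. Acadm libraries of both SFr groups lay above their baselines by a narrow margin. The log2 fold changes were 0.13 ± 0.044 for SFr against control (adjusted p = 0.0141) and 0.16 ± 0.044 for SFr_Dgal against Dgal (adjusted p = 0.00342). The call of Acadm against control was lost without SFr replicate 1 (adjusted p = 0.106), SFr replicate 2 (0.0514) or control replicate 2 (0.063).

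Hadha, part of the complex that completes the cycle on long chains, was lower. It had 218, 225 and 218 CPM in SFr, against 240, 248 and 240 CPM in control, and 225, 223 and 215 CPM in SFr_Dgal, against 242, 240 and 237 CPM in Dgal. The SFr groups lay wholly below their baselines. NSFr was the next group in the order, and its lowest library equalled the highest SFr and SFr_Dgal libraries to the digits given (225 CPM). The log2 fold changes were -0.14 ± 0.030 (adjusted p = 0.000258) and -0.12 ± 0.030 (adjusted p = 0.00193), in edgeR's quasi-likelihood test. Hadha lies at chr5:30118304-30155162 on the minus strand and overlaps Garem2 on the other strand.

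Acadl and Acadvl, the dehydrogenases of long and very long chains, were not called in either SFr comparison. Acadl had 268, 276 and 257 CPM in SFr, against 280, 265 and 258 CPM in control (log2 fold change -0.0036 ± 0.041, adjusted p = 0.956). Acadvl had 136, 133 and 136 CPM in SFr, against 142, 135 and 141 CPM in control (-0.044 ± 0.035, adjusted p = 0.316). In SFr_Dgal against Dgal the log2 fold changes were 0.015 ± 0.041 for Acadl (adjusted p = 0.807) and 0.015 ± 0.035 for Acadvl (adjusted p = 0.767). For Acadl all neighbours in the order of groups overlapped, and for Acadvl all but SFr and NSFr at the low end did. Acadl lies at chr1:66830839-66863277, Acadvl at chr11:70010183-70015411 and Acadm at chr3:153922357-153944632, all on the minus strand. None of the 30 Acadvl values was a whole count and the gene overlaps Dvl2 on the other strand, so reads may be shared between these 2 genes.

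In SFr_Dgal against Dgal, 5 of 9 genes were called higher and 1 lower, against 20.3% and 21% of all genes, with a median log2 fold change of 0.19 for the 9 and -0.0055 over all genes. The comparisons with and without D-galactose share no library. The SFr difference was not shown to differ between them for any of the 9 (0 called by edgeR and 0 by DESeq2, 2 at an unadjusted p under 0.05), where 0.583% of all genes were called. The estimates of that difference of differences were -0.22 ± 0.079 for Pdk4 (adjusted p = 0.198) and -0.21 ± 0.097 for Angptl4 (adjusted p = 0.353). Without control replicate 3, Pdk4 was called (-0.30, adjusted p = 0.0435).

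The non-saponin fraction, given at the same dose and time, gives another reference for the saponin fraction. SFr had higher levels than NSFr of 5 of 9 genes and lower levels of 0, in comparisons that share the SFr libraries with those above, against 20.8% of all genes called higher and 19.6% lower. The log2 fold changes were 1.12 ± 0.067 for Angptl4, 0.63 ± 0.056 for Pdk4, 0.48 ± 0.050 for Cpt1a, 0.19 ± 0.044 for Acadm and 0.13 ± 0.054 for Ppard. The Ppard call (adjusted p = 0.0451) was lost in 6 of 11 alternatives, among them DESeq2 (adjusted p = 0.0722) and the analysis without SFr replicate 3 (0.191). Hadha, at -0.073 ± 0.030 (adjusted p = 0.0518), was called in 4 of 11, with adjusted p down to 0.0174 by DESeq2. With D-galactose, SFr_Dgal had higher levels than NSFr_Dgal of 4 genes and lower levels of 1, against 20.7% and 20.3% of all genes. These were Angptl4 (0.97 ± 0.069), Pdk4 (0.59 ± 0.055), Cpt1a (0.41 ± 0.051), Acadm (0.25 ± 0.044) and, lower, Hadha (-0.13 ± 0.030).

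**Figure D3:**
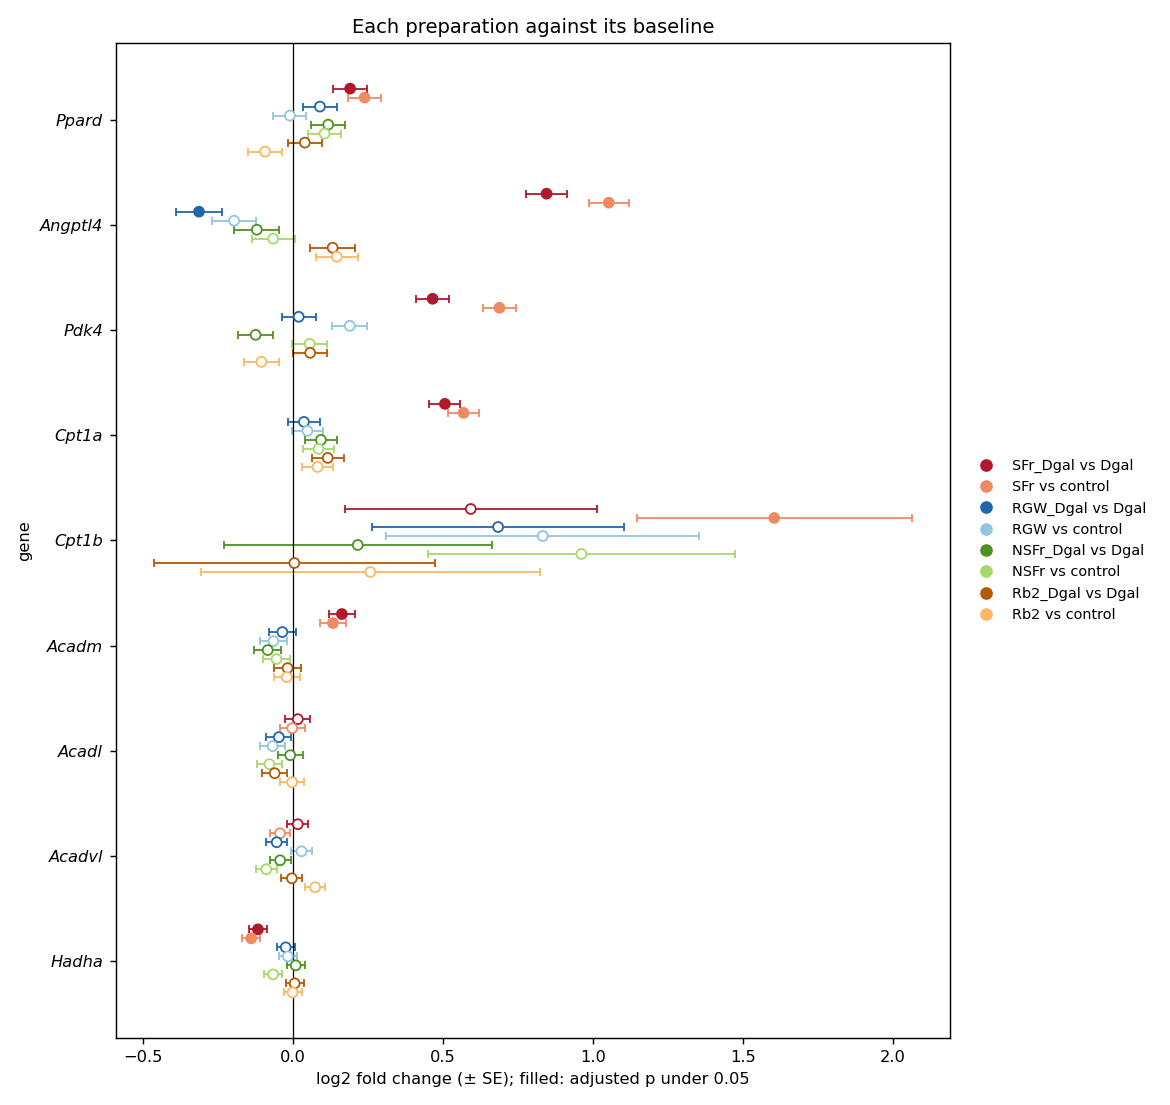
Log2 fold change with its SE on the horizontal axis for the 9 genes in each preparation against its baseline, with and without D-galactose, where filled points have an adjusted p under 0.05. The filled points belong to the SFr comparisons, except for Angptl4 in RGW_Dgal against Dgal (-0.31 ± 0.077).

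Few of these genes were called after the water extract, the non-saponin fraction or Rb2. Few of all genes were called either, so counts of 0 or 1 of 9 say nothing particular about these genes. Against control, edgeR called 0 of 9 after RGW, NSFr or Rb2, beside 3.21%, 8.08% and 1.53% of all genes, and DESeq2 also called 0, with 2 of 9 at an unadjusted p under 0.05 after each. With D-galactose, 0 of 9 were called after NSFr (6.33% of all genes) and 0 after Rb2 (2.26%), by both tools, with 2 and 1 at an unadjusted p under 0.05. After RGW with D-galactose 1 gene, Angptl4, was called lower, beside 2.54% of all genes called lower. These comparisons share their baseline libraries with each other and with the SFr comparisons.

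Angptl4 had 16.5, 14.4 and 16.5 CPM in RGW_Dgal, against 20.0, 18.5 and 20.2 CPM in Dgal, with no overlap. Its log2 fold change was -0.31 ± 0.077 (edgeR adjusted p = 0.0113), and it was no longer called without RGW_Dgal replicate 2 (adjusted p = 0.12) or Dgal replicate 3 (0.0644). Without the sugar Angptl4 had 18.7, 18.4 and 19.2 CPM in RGW, overlapping the range of control (-0.20 ± 0.073, adjusted p = 0.14), and only the analysis without control replicate 2 called it (adjusted p = 0.0339). In Rb2 it had 25.1, 25.1 and 21.0 CPM (0.15 ± 0.071, adjusted p = 0.405). Pdk4 had 34.9, 39.4 and 36.8 CPM in RGW (0.19 ± 0.058, adjusted p = 0.0678), and the analysis without control replicate 3 called it (0.27, adjusted p = 0.01). Pdk4 had 29.9, 31.8 and 29.0 CPM in Rb2, with the lowest library of all 30 (-0.11 ± 0.059, adjusted p = 0.5). The log2 fold changes of Cpt1a in these 6 comparisons ranged from 0.036 in RGW_Dgal against Dgal to 0.12 in Rb2_Dgal against Dgal. Those of the 4 enzyme genes ranged from -0.090, Acadvl in NSFr against control, to 0.073, Acadvl in Rb2 against control.

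Pdk4 was higher in Dgal than in control, and the other 8 genes were not called. Pdk4 had 37.2, 38.0 and 41.8 CPM in Dgal, against 30.4, 31.3 and 36.2 CPM in control, without overlap, a rise of 1.2-fold (log2 fold change 0.26 ± 0.059, edgeR adjusted p = 0.00114). Thus 1 of 9 genes was called higher and 0 lower, where 11.9% and 13.1% of all genes were. The median log2 fold change of the 9 was -0.061, beside -0.0042 over all genes. Without 1 library at a time, 1 to 3 genes were called: Angptl4 was lower without control replicate 2 (adjusted p = 0.0358), Cpt1a lower without control replicate 1 or 3 (0.0444 and 0.0432), Ppard lower without Dgal replicate 2 (0.024) and Cpt1b higher without control replicate 3 (0.0353).

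**Figure D4:**
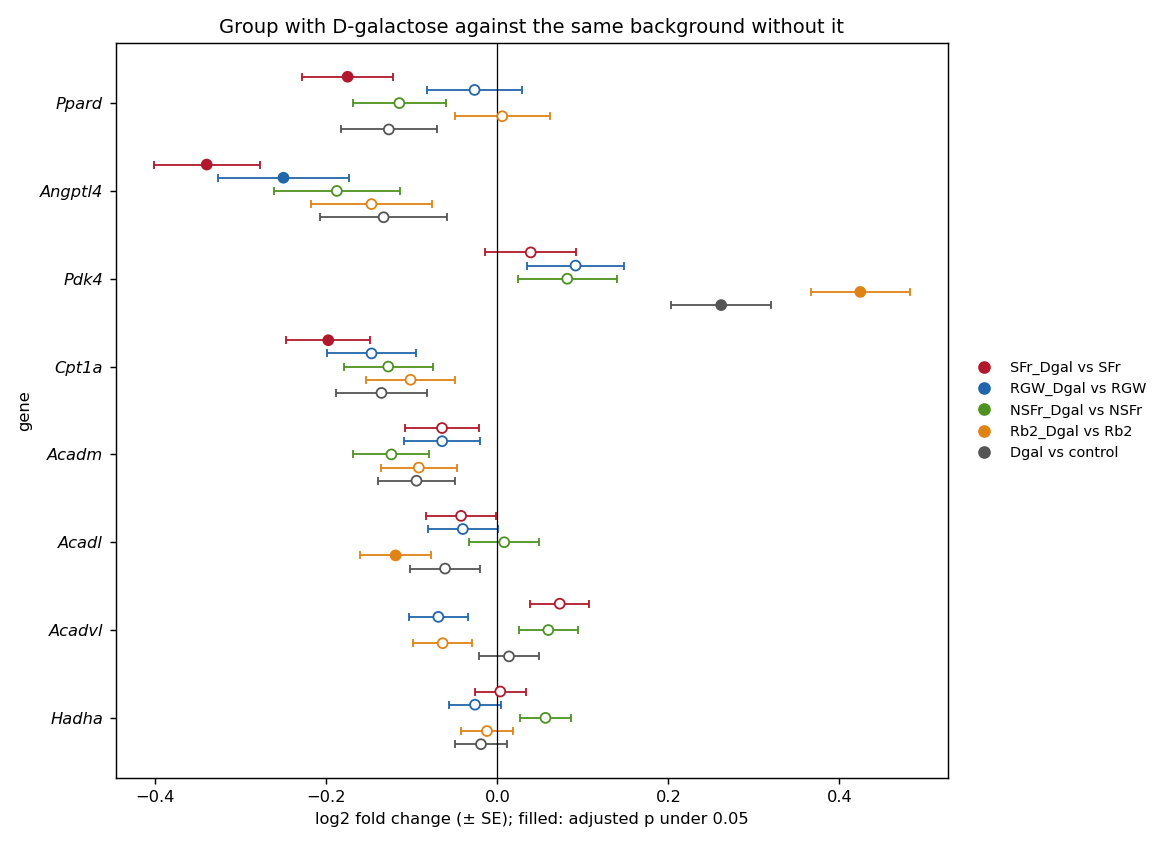
Log2 fold change with its SE on the horizontal axis for cultures with D-galactose against the same background without it, for 8 genes in 5 backgrounds (Cpt1b, with SEs of 0.359 to 0.533, is not drawn). Angptl4, Cpt1a and Acadm lie left of 0 and Pdk4 right of 0 in all 5 backgrounds, and filled points have an adjusted p under 0.05.

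The 5 backgrounds, vehicle and the 4 preparations, each have libraries of their own with and without the sugar. Pdk4 had higher and Angptl4, Cpt1a and Acadm had lower estimates with D-galactose in all 5, although few of these passed the test singly. After SFr, 3 genes were called lower with the sugar: Angptl4 (-0.34 ± 0.062, adjusted p = 0.000133), Cpt1a (-0.20 ± 0.049, adjusted p = 0.00382) and Ppard (-0.18 ± 0.053, adjusted p = 0.0183), beside 10.5% of all genes called lower. The Ppard call was lost in 5 of 11 alternatives, with adjusted p up to 0.127 without SFr replicate 3. After RGW, Angptl4 was called lower (-0.25 ± 0.076, adjusted p = 0.0215; 8.93% of all genes lower), but not without RGW replicate 1 (0.0531), RGW replicate 3 (0.0712) or RGW_Dgal replicate 2 (0.191). After NSFr 0 of 9 were called by edgeR or DESeq2, with 4 at an unadjusted p under 0.05, beside 12.7% of all genes called.

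After Rb2, Pdk4 was called higher and Acadl lower with D-galactose, beside 9.81% and 11.2% of all genes called higher and lower. Pdk4 had 38.9, 42.8 and 40.0 CPM in Rb2_Dgal, against 29.9, 31.8 and 29.0 CPM in Rb2 (0.42 ± 0.058, edgeR adjusted p = 2.05e-06), the largest D-galactose difference of Pdk4 among the backgrounds. Acadl had 255, 239 and 243 CPM in Rb2_Dgal, against 265, 263 and 273 CPM in Rb2 (-0.12 ± 0.041, adjusted p = 0.0368). The Acadl call was lost without any 1 of Rb2 replicate 1, 2 or 3 or Rb2_Dgal replicate 2 or 3 (adjusted p up to 0.163). For Pdk4 the D-galactose difference was 0.26 in the vehicle background, 0.091 ± 0.057 after RGW, 0.082 ± 0.058 after NSFr and 0.039 ± 0.053 after SFr.

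The size of the Pdk4 difference varied over the 5 backgrounds in an F-test of the 4 interaction terms (edgeR adjusted p = 0.0245), the only 1 of the 9 genes called, where 0.796% of all genes were. That call was lost without SFr replicate 1 (0.0717), SFr replicate 3 (0.063), SFr_Dgal replicate 3 (0.0518), Rb2 replicate 1 (0.0719), Rb2 replicate 3 (0.098) or Rb2_Dgal replicate 2 (0.106). No single preparation was shown to change the D-galactose difference of any of the 9 genes: edgeR and DESeq2 each called 0 for RGW, NSFr and Rb2, with 1, 1 and 0 genes at an unadjusted p under 0.05, beside 0.041% of all genes for NSFr and 0 genes for RGW or Rb2.

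Averaged over the 5 backgrounds, a contrast chosen after the values were seen, the D-galactose difference was called for 6 of the 9 genes. Pdk4 was higher (0.18 ± 0.026, edgeR adjusted p = 4.33e-07). Angptl4 (-0.21 ± 0.032, adjusted p = 1.28e-06), Cpt1a (-0.14 ± 0.023, adjusted p = 4.42e-06), Acadm (-0.088 ± 0.020, adjusted p = 0.000368), Ppard (-0.088 ± 0.025, adjusted p = 0.00341) and Acadl (-0.051 ± 0.018, adjusted p = 0.0205) were lower. The same contrast called 24.7% of all genes higher and 26.4% lower. Cpt1b, Acadvl and Hadha were not called, and Hadha had an average difference of 0.00038 ± 0.014.

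Other genes of fatty acid use were followed in lists drawn up with earlier results of these data known. Counts called higher and lower are read against the shares of all genes, which were 21.3% and 21.8% in SFr against control, 20.3% and 21% in SFr_Dgal against Dgal and 11.9% and 13.1% in Dgal against control, and a count near those shares says nothing particular about a list. Of 18 PPAR delta target genes outside the 9, 16 had enough counts to be tested, and of these 5 were called higher and 3 lower in SFr against control (median log2 fold change 0.0026), and 5 and 2 in SFr_Dgal against Dgal (median 0.051), beside 43.1% and 41.3% of all genes called in either direction. Lpl, lipoprotein lipase, the enzyme that ANGPTL4 protein inhibits, averaged 90.5 ± 3.98 CPM in SFr_Dgal, against 42.4 ± 3.42 CPM in Dgal, and 116 ± 1.70 CPM in SFr, against 54.0 ± 2.94 CPM in control (SD, n = 3). Its log2 fold changes were 1.09 ± 0.061 and 1.11 ± 0.058. Plin2, a lipid droplet coat protein, had 149 ± 6.11 CPM in SFr_Dgal, against 96 ± 2.47 CPM in Dgal, and 159 ± 9.34 CPM in SFr, against 91.5 ± 3.04 CPM in control.

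Other targets fell. Fgf21, a hormone that stressed muscle secretes, averaged 20.0 ± 1.62 CPM in SFr_Dgal, against 50.9 ± 0.807 CPM in Dgal, and 19.2 ± 1.69 CPM in SFr, against 47.7 ± 3.64 CPM in control (-1.35 ± 0.097 and -1.31 ± 0.098). Cd36, a fatty acid transporter of the cell surface, had 21.6 ± 0.584 CPM in SFr_Dgal, against 30.7 ± 1.52 CPM in Dgal, and 26.5 ± 1.64 CPM in SFr, against 39.6 ± 1.55 CPM in control (-0.51 ± 0.056 and -0.58 ± 0.053). Acot1, an acyl-CoA thioesterase, rose by 0.85 ± 0.17 in SFr_Dgal against Dgal, though it shares sequence with Acot2 and its counts are uncertain. In Dgal against control, Cd36 (-0.37 ± 0.053) and Lpl (-0.35 ± 0.063) were lower and Pnpla2, adipose triglyceride lipase, was higher (0.16 ± 0.048), with 1 of the 16 called higher and 2 lower.

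**Figure D5:**
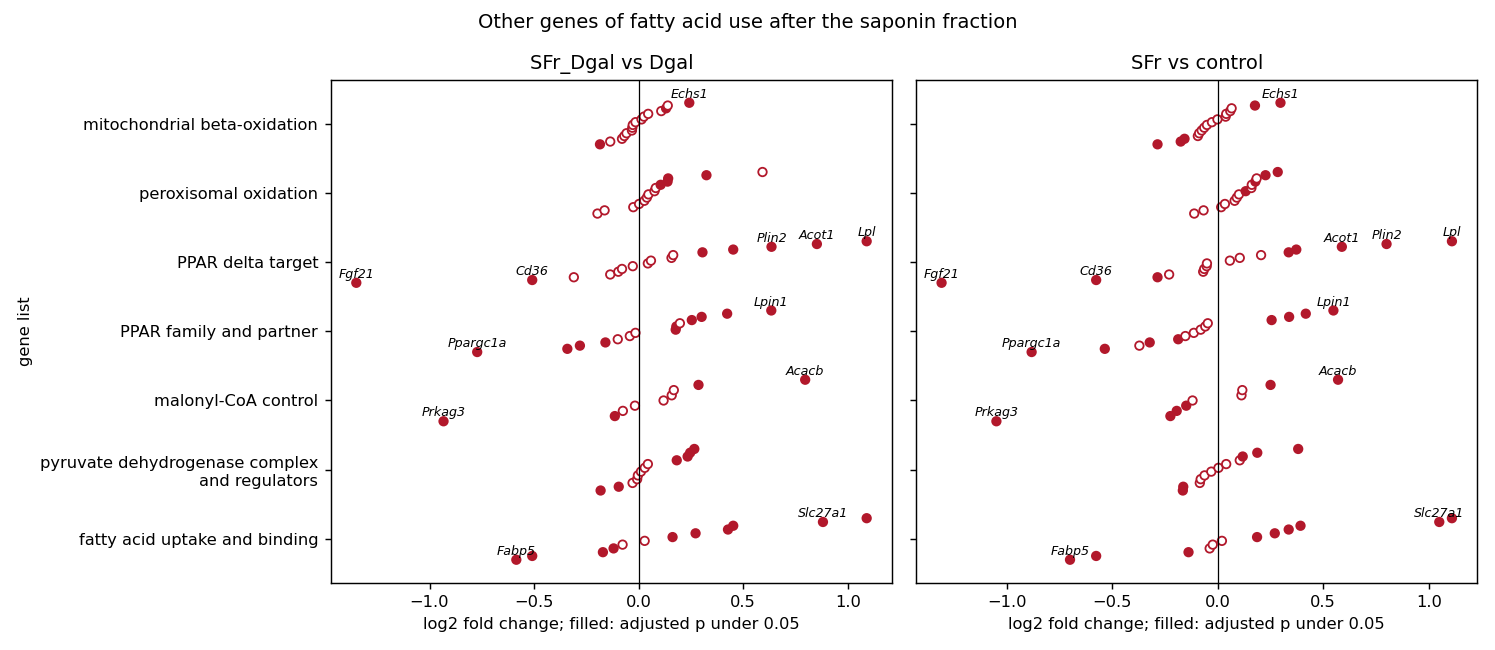
Log2 fold change on the horizontal axis for single genes of 7 lists after the saponin fraction, SFr_Dgal against Dgal on the left and SFr against control on the right, where filled points have an adjusted p under 0.05. Lpl, Plin2 and Slc27a1 lie to the right and Fgf21, Prkag3 and Ppargc1a to the left in both panels, while the mitochondrial beta-oxidation genes lie close to 0.

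Among genes of fatty acid uptake and binding, 12 of 14 were tested, and 6 were called higher and 3 lower in SFr against control, and 6 and 4 in SFr_Dgal against Dgal (medians 0.10 and 0.095), beside 43.1% and 41.3% of all genes called in either direction. The fatty acid transporter Slc27a1 averaged 80.3 ± 2.05 CPM in SFr_Dgal, against 43.6 ± 1.12 CPM in Dgal, and 102 ± 1.32 CPM in SFr, against 49.5 ± 1.14 CPM in control. Fabp5, a fatty acid binding protein known to carry ligand to PPAR delta, was lower in both SFr comparisons (-0.59 ± 0.15 with the sugar and -0.70 ± 0.14 without). After D-galactose alone 1 gene of this list was called higher and 4 lower, including Acsl3, an acyl-CoA synthetase (-0.36 ± 0.030), which averaged 381 ± 4.51 CPM in Dgal, against 488 ± 7.92 CPM in control.

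Of the 16 other mitochondrial beta-oxidation genes, 2 were called higher and 3 lower in SFr against control, and 2 and 1 in SFr_Dgal against Dgal, beside 43.1% and 41.3% of all genes called in either direction. Their median log2 fold changes were -0.040 and -0.022. Echs1, the short-chain enoyl-CoA hydratase, was higher in both (0.30 ± 0.056 without the sugar and 0.24 ± 0.057 with it), and Slc25a20, the carrier that brings acylcarnitines across the inner membrane, was lower in SFr (-0.29 ± 0.068). Of 14 peroxisomal oxidation genes, 4 were called higher and 0 lower in each SFr comparison (medians 0.12 and 0.061), beside 21.3% and 20.3% of all genes called higher. Among them was Acaa1a, a peroxisomal thiolase (0.28 ± 0.060 in SFr and 0.32 ± 0.060 in SFr_Dgal). D-galactose alone gave 1 higher and 2 lower of the mitochondrial genes, with Acads, the short-chain dehydrogenase, at -0.18 ± 0.042, and 0 higher and 1 lower of the peroxisomal genes.

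Of 15 genes of the PPAR family and its partners 14 were tested, and 4 were called higher and 4 lower in SFr against control, and 6 and 4 in SFr_Dgal against Dgal (medians -0.097 and 0.081), where 21.3% and 21.8% of all genes were called higher and lower in the first and 20.3% and 21% in the second. Ppargc1a, the PGC-1 alpha coactivator, averaged 1.31 ± 0.231 CPM in SFr_Dgal, against 2.23 ± 0.412 CPM in Dgal, and 1.33 ± 0.153 CPM in SFr, against 2.47 ± 0.372 CPM in control (-0.77 ± 0.17 and -0.88 ± 0.17). Its relative Ppargc1b was higher in both (0.42 ± 0.12 in each), as was Lpin1, a phosphatidate phosphatase that coactivates PPAR alpha (0.63 ± 0.061 and 0.55 ± 0.061). D-galactose alone called 0 higher and 1 lower, Rxra, the partner receptor (-0.18 ± 0.039).

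Malonyl-CoA blocks carnitine palmitoyltransferase 1, and AMP-activated protein kinase holds its synthesis down. Of 9 genes of this control, 2 were called higher and 4 lower in SFr against control and 2 and 2 in SFr_Dgal against Dgal (medians -0.12 and 0.12), where 43.1% and 41.3% of all genes were called in either direction. Acacb, the acetyl-CoA carboxylase that makes malonyl-CoA at mitochondria, averaged 13.4 ± 0.637 CPM in SFr_Dgal, against 7.69 ± 0.684 CPM in Dgal, and 11.9 ± 0.656 CPM in SFr, against 8.03 ± 1.64 CPM in control. Prkag3, the muscle gamma subunit of the kinase, had 54.2 ± 2.79 CPM in SFr_Dgal, against 103 ± 4.97 CPM in Dgal, and 48.2 ± 3.61 CPM in SFr, against 100 ± 2.40 CPM in control. D-galactose alone called 0 higher and 2 lower, among them the catalytic subunit gene Prkaa2 (-0.44 ± 0.068).

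Pdk4 shuts the pyruvate dehydrogenase complex, whose regulators include other kinases of the same kind as well as phosphatases. Of 12 other genes of the complex and its regulators, 3 were called higher and 2 lower in SFr against control, and 4 and 2 in SFr_Dgal against Dgal (medians -0.014 and 0.020). Of all genes, 43.1% and 41.3% were called in either direction. The phosphatase Pdp2, which reactivates the complex, was higher in both (0.38 ± 0.076 in SFr and 0.25 ± 0.078 in SFr_Dgal). The E1 subunit gene Pdha1 (-0.16 ± 0.029 and -0.095 ± 0.029) and the kinase gene Pdk3 (-0.17 ± 0.047 and -0.18 ± 0.047) were lower in both. With D-galactose alone Pdk3 was higher (0.13 ± 0.047), the 1 gene of this list called.

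Markers of cell state moved with the SFr groups and with D-galactose. Summed myotube markers ranged from 22000 to 23700 CPM in SFr_Dgal, against 24600 to 25200 CPM in Dgal, and from 19700 to 20700 CPM in SFr, against 25100 to 27000 CPM in control. Of those 10 markers, 8 were called lower and 1 higher in SFr against control, and 6 and 1 in SFr_Dgal against Dgal. Of all genes, 21.8% were called lower and 21.3% higher in SFr against control, and 21% and 20.3% in SFr_Dgal against Dgal. The other marker counts after SFr are to be read beside the same shares. Myoblast and cell division markers summed to 138 to 143 CPM in SFr_Dgal, against 170 to 178 CPM in Dgal, and to 163 to 180 CPM in SFr, against 253 to 262 CPM in control. Of these 9 markers, 6 were called lower in each SFr comparison, while Id3 (0.57 ± 0.073 in SFr_Dgal and 0.59 ± 0.071 in SFr) and, in SFr against control, Id1 (0.18 ± 0.064) were called higher. Endothelial and macrophage markers, of which 7 of 8 were in the table, summed to 6.60 to 7.11 CPM in SFr_Dgal, against 3.04 to 3.66 CPM in Dgal, and to 4.40 to 4.84 CPM in SFr, against 1.78 to 2.36 CPM in control. Cd68 was the only one of 4 tested called higher, and Cdh5 was called lower in SFr against control (-2.06 ± 0.67). Cdh5 averaged 0.0589 ± 0.0708 CPM in SFr, under the floor of 3 counts, and 0.266 ± 0.0693 CPM in control. The size of its fall is therefore uncertain. Bone cell markers summed to 36.9 to 38.0 CPM in SFr_Dgal, against 40.2 to 46.6 CPM in Dgal, and to 35.6 to 43.5 CPM in SFr, against 41.8 to 46.4 CPM in control, mostly from Runx2. With D-galactose, 5 of the 9 myoblast and cell division markers were called lower in each of the 5 backgrounds. Of all genes, 13.1% were called lower in the vehicle background, 8.93% after RGW, 10.5% after SFr and 11.2% after Rb2. After NSFr, 12.7% of all genes were called in either direction. In each background but SFr, 1 of the 9 was called higher. Of all genes, 11.9% were called higher in the vehicle background and 9.81% after Rb2. In Dgal against control Mki67 (-1.32 ± 0.17) and Ccna2 (-1.21 ± 0.078) were lower, while the myoblast marker Pax7 was higher (0.25 ± 0.061). Of the 10 myotube markers 3 were called higher there, among them Mb (0.22 ± 0.064) and Actn2 (0.20 ± 0.047), beside 11.9% of all genes. Myh3 was the 1 called lower (-0.63 ± 0.044), and Cd68 was called higher (1.34 ± 0.24). The part of these shifts in the SFr and D-galactose differences of the 9 genes was not tested, and in RNA from whole cultures fewer cells of a type and less RNA per cell cannot be told apart.

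Mitochondrially encoded genes took 1.49% ± 0.183 of the counts in Dgal, against 0.908% ± 0.211 in control, and 1.24% ± 0.0698 in Rb2_Dgal, against 0.858% ± 0.129 in Rb2 (SD, n = 3), the 2 backgrounds in which Pdk4 was called higher with the sugar. In SFr_Dgal the share was 1.21% ± 0.224, against 1.22% ± 0.120 in SFr, where Pdk4 was not called. It was 1.55% ± 0.183 in RGW_Dgal, against 1.29% ± 0.0367 in RGW, and 1.42% ± 0.117 in NSFr_Dgal, against 1.18% ± 0.0433 in NSFr, where Pdk4 was not called either. The part of this share in the Pdk4 levels was not tested.

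Across the 10 group means of log2 CPM, Angptl4 and Cpt1a had Pearson r = 0.953, Angptl4 and Acadm 0.912, and Cpt1a and Hadha -0.865. These values describe 10 points in which the SFr groups, whose libraries are shared by both genes of a pair, lie at 1 end. Among 9631 genes with a mean of at least 5 CPM, the patterns most like that of Angptl4 were those of Fads2 (r = 0.987), Tm4sf1 (0.987) and Sqle (0.984). For Pdk4 they were St6galnac4 (0.982), Wdr59 (0.980) and Ttll12 (0.978), and for Cpt1a they were Fam20c (0.992), Slc6a2 (0.986) and Ank (0.985). The closest were Rras for Acadm (0.985), Bmpr1b for Hadha (0.979), Glmp for Ppard (0.978), Abcb8 for Cpt1b (0.948), Kpna3 for Acadvl (0.932) and Pole3 for Acadl (0.914). All are descriptions over 10 points drawn from the same 30 libraries.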

How the data were processed

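RNA was sequenced from 30 C2C12 myotube cultures. Directional MGIEasy libraries of poly(A) RNA were read from both ends on the DNBSEQ platform, per the labels. The submitters' processing notes name RSEM 1.3.3, STAR 2.7.9a, Trim Galore 0.6.10 and FastQC 0.11.9 as tools and mm10 and GRCm38 as builds. Which annotation and strand setting the counting used is not given in the sources used here. Values as deposited are expected counts per gene, made by the authors without normalization. RSEM splits reads that match several genes, which left 19.4% of values not whole. GENCODE vM21 on GRCm38 supplied coordinates and exon lengths for 16021 of 16025 symbols.

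After rounding, edgeR 4.0.16 in R 4.3.3, with limma 3.58.1, fitted 1 group model to all 30 libraries (quasi-likelihood F-test, robust, TMM scaling, filterByExpr). The threshold was an adjusted p of 0.05 (Benjamini-Hochberg) over 12184 genes. CPM are relative to each library's tested total times its TMM factor. Each SE is the size of the log2 fold change over the root of its F value. The biological coefficient of variation was 4.25%. Libraries of the same group all differed by more than sampling noise, so none was merged or left out. The test was also run on counts simulated from the means and spreads of its own fit, and no result here rests on that run.

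The 9 genes, the lists and the comparisons were chosen with earlier results of these data known. Named are all 9 genes, up to 2 genes called higher and 2 lower of each other list with the largest change in SFr against control, SFr_Dgal against Dgal and Dgal against control, and the genes with the pattern most like each of the 9. Some of these appear only in counts, and Plin2 in SFr_Dgal is given beside its value in SFr. The planned tests of the 9 genes were recomputed with RLE scaling, without the low-count filter, with DESeq2 1.42.0, with a replicate block, with only the groups compared and without each library. The average over backgrounds was added after the values were seen and was fitted 1 way only.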

Additional observations from a re-analysis of the deposited data

Results flagged for a closer look

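The D-galactose difference of Pdk4 was not equal over the 5 backgrounds in edgeR's F-test of the 4 interaction terms together (adjusted p = 0.0245). The log2 fold change was 0.42 ± 0.058 after Rb2, 0.26 ± 0.059 in the vehicle background, 0.091 ± 0.057 after RGW, 0.082 ± 0.058 after NSFr and 0.039 ± 0.053 after SFr. The estimate was above 0 in all 5 backgrounds and called in 2. Groups of 3 libraries were not examined for single outlying values.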

How the results depend on the processing

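Of 2717 recomputed single-gene values, 2640 kept their direction and side of the threshold, or were uncalled both times, 50 lost the call, 27 gained it and 0 reversed; 1 had no adjusted p from DESeq2 and was left out. Averaging over the 5 backgrounds raised the genes called with D-galactose to 6, against 1 in the vehicle background, where the average uses more libraries. Fitting only NSFr_Dgal and NSFr called 2 genes, Angptl4 and Acadm, both lower, against 0, and the cause was not tested. With each library left out in turn, the number of the 9 genes called ran from 1 to 3 for Dgal against control, 0 to 1 for RGW against control, NSFr against control, RGW_Dgal against Dgal, RGW_Dgal against RGW, the SFr interaction and the test over 5 backgrounds, and 1 to 2 for Rb2_Dgal against Rb2. It ran from 6 to 7 for SFr against control and 5 to 6 for SFr_Dgal against Dgal.

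The replicate block left the number of the 9 genes called at 7 for SFr against control, 6 for SFr_Dgal against Dgal and 1 for Dgal against control, and changed it in 1 test, that over all 10 groups, to 7, against 8, through Cpt1b (adjusted p = 0.0544). Pairing by replicate number was not shown: deviations of 135 same-number pairs had correlations from -0.193 to 0.157 (median 0.00386). Of 30 libraries, 10 correlated best with their own number. These correlations do not exclude that libraries of the same number shared a day. Depth limits Cpt1b, whose lowest library held 1.14 expected counts. Of 608 list counts, 28 moved by over 1.5 times under an alternative.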

Other observations

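Of the angiopoietin-like genes other than Angptl4, 5 of the 6 listed were in the table and 3 had enough counts to be tested. Angptl7 averaged 1.25 ± 0.0931 CPM in SFr_Dgal, against 0.234 ± 0.136 CPM in Dgal, and 1.40 ± 0.206 CPM in SFr, against 0.202 ± 0.0822 CPM in control (SD, n = 3). It was called higher in both (log2 fold change 2.35 ± 0.34 and 2.80 ± 0.33). Its means in Dgal and control lie near the floor of 3 counts, so the size of these rises is uncertain. Angptl6 was called higher (0.48 ± 0.12) and Angptl2 lower (-0.14 ± 0.038) in SFr_Dgal against Dgal, and Angptl2 was called higher in Dgal against control (0.11 ± 0.038).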
